A study of Arabidopsis thaliana with 8 samples.

Results

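The 10 genes described here encode enzymes of jasmonate synthesis in *Arabidopsis thaliana*. They are the lipoxygenase genes *LOX2* (AT3G45140), *LOX3* (AT1G17420) and *LOX4* (AT1G72520), *AOS* (AT5G42650), *AOC1* (AT3G25760), *AOC2* (AT3G25770), *OPR3* (AT2G06050), *OPCL1* (AT1G20510), *ACX1* (AT4G16760) and *JAR1* (AT2G46370). They were taken by locus identifier from a table of 33602 genes as known enzymes of the pathway, and all 10 were among the 19280 genes that reached 1 CPM (reads on a gene scaled to a common library size) in at least 2 libraries and were tested. The study asked which genes respond to shade in older plants rather than in seedlings. RNA was sequenced from leaves and the apical region of wild-type Col plants grown for 2 weeks, after cotyledons, hypocotyls and roots had been cut away. From 4 hours after lights on, plants either stayed in simulated sun, which has a high ratio of red to far-red light, or were moved to simulated shade, in which far-red light lowers that ratio. Tissue was collected 1 or 4 hours later. Each of the 4 conditions had 2 replicates and each replicate pooled 5 plants, giving 8 libraries, with sun controls of the same age and hour for each shade sample.

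Jasmonates are lipid hormones that leaves make after wounding and insect attack and also use to restrain growth and to time development. Lipoxygenases oxygenate linolenic acid in the chloroplast, allene oxide synthase (*AOS*) and allene oxide cyclases (*AOC1*, *AOC2*) turn the product into 12-oxophytodienoic acid (OPDA), and in the peroxisome OPDA is reduced by *OPR3*, activated by the CoA ligase *OPCL1* and shortened by β-oxidation that begins with acyl-CoA oxidases such as *ACX1*. *JAR1* joins the resulting jasmonic acid to isoleucine, and this conjugate is the form that the receptor *COI1* recognises. Most genes of the pathway are themselves induced by jasmonate, and shade is known to weaken jasmonate responses in leaves.

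Marker genes matched the label for leaf and in part for the apex. Summed over 4 leaf genes, including the small subunit of Rubisco, the level was 34540 to 43480 CPM. The meristem gene *STM* was read in all libraries, at 3.43 to 9.01 CPM, the lowest value from 4 reads. Another apex gene, *KNAT1*, was at 6.705 to 16.3 CPM, while *CLV3* had at most 1 read in any library and *WUS* had none. Root markers summed to 1.71 to 4.73 CPM, which overlaps the range of *STM*, and flower markers to at most 0.237 CPM. The shade genes *ATHB2*, *IAA29* and *PIL1* together reached 128 to 138 CPM in shade at 1 hour against 6.23 to 15.1 CPM in sun, and 24.1 to 70.2 CPM in shade at 4 hours against 7.06 to 7.36 CPM in sun. Libraries held 1154019 to 4680620 reads. The smallest was 4 hour shade replicate 1, the next held 3449191, and 1 read was worth 0.856 CPM in it against 0.216 to 0.291 CPM in the others. Since each library mixes cell types, fewer cells of a type and less RNA per cell cannot be told apart.

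In the TAIR10.1 assembly the lipoxygenase genes lie at chr3:16525245-16529352 (*LOX2*), chr1:5977323-5981521 (*LOX3*) and chr1:27308513-27312756 (*LOX4*), all on the plus strand. *AOS* lies at chr5:17097564-17099595 on the minus strand and has 1 exon. *AOC1* (chr3:9403779-9405338) and *AOC2* (chr3:9406669-9408071) are neighbours on the plus strand, each with 2 exons. *OPR3* (chr2:2359114-2362375), *OPCL1* (chr1:7103362-7106121) and *ACX1* (chr4:9424534-9428895) are on the minus strand, and *JAR1* (chr2:19033586-19036683) is on the plus strand. None of the 10 genes overlaps another annotated gene. Of the 40-base words in the exons, the length of the sequenced reads, 42 of 1113 in *AOC1* (3.77%), 19 of 1222 in *AOC2* (1.55%) and 8 of 2050 in *ACX1* (0.39%) occur elsewhere in the genome, and none of the words in the other 7 genes do. Only exact matches were counted, and where else the words occur was not recorded. Whether the *AOC* genes share reads with each other is therefore not known.

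The sequences before the gene starts are shown because *MYC2* and its relatives, the transcription factors that jasmonate signalling releases and that act on many genes of the pathway, bind the G-box (CACGTG) and the related T/G-box (AACGTG). In the 500 bases before the annotated start, searched on both strands, *AOS* and *ACX1* have a G-box, and *LOX2*, *LOX4* and *AOC1* have a T/G-box. That is 5 of 10 genes with either motif, against 21.3% of 27443 protein-coding genes (9.35% with the G-box and 13.5% with the T/G-box). The T/G-box was added to the search after the data were seen, so this combined count was not planned. *LOX3*, *AOC2*, *OPR3*, *OPCL1* and *JAR1* have neither in this window. The window of *OPCL1* overlaps another annotated gene, AT1G20515, and those of the other genes overlap none. The matches lie at chr3:16524892-16524937 for *LOX2*, chr1:27308399-27308444 for *LOX4*, chr3:9403621-9403666 for *AOC1*, chr5:17099596-17099621 for *AOS* and chr4:9428962-9429007 for *ACX1*, each written 5′ to 3′ on the strand of its gene with the motif in capitals. In *LOX2* and *AOC1* the T/G-box is on the opposite strand and so reads CACGTT. The motif begins 333 bases before the start of *LOX2*, 94 before *LOX4*, 138 before *AOC1*, 92 before *ACX1* and 6 before *AOS*, whose sequence ends at the start.
LOX2: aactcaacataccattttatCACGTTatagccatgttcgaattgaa
LOX4: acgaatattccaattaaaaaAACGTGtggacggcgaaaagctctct
AOC1: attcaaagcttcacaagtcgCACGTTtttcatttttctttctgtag
AOS: gaaggaaaaaagagtcaaagCACGTG
ACX1: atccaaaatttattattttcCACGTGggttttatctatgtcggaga
A match describes these letters only and does not show that a factor binds there.

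The 10 genes were expressed at very different levels. As CPM per kilobase of exon, with the median of the 4 sun libraries, *LOX2* was at 146, *AOC2* at 66.4, *AOS* at 64.3, *OPR3* at 31.5 and *ACX1* at 25. Lower levels per kilobase were found for *JAR1* (18.2), *OPCL1* (14.5), *AOC1* (5.91), *LOX3* (3.74) and *LOX4* (0.908). *LOX2*, the main lipoxygenase of wounded leaves, was thus far above *LOX3* and *LOX4*, and *AOC2* far above its neighbour *AOC1*. Adjacent genes in this order were not separated, since the sun libraries of all 9 neighbouring pairs overlapped on this scale.

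The libraries differed more for some genes than for others. Between the lowest and the highest library *AOC1* varied 37.5-fold in CPM, *LOX4* 30.7-fold, *LOX3* 22-fold, *LOX2* 10.1-fold and *AOC2* 8.87-fold. *OPR3* (2.84-fold), *AOS* (2.78-fold), *ACX1* (2.28-fold), *JAR1* (2.25-fold) and *OPCL1* (2.04-fold) varied less. The highest value of 9 of the 10 genes was in a single library, 4 hour shade replicate 1, which also held the highest value of 22.8% of all tested genes. *OPCL1* was the exception and was highest in 4 hour sun replicate 2. All 10 lowest values came from libraries at 1 hour: 6 from shade replicate 1, 3 from shade replicate 2 and 1 from sun replicate 2.

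**Figure D1:**
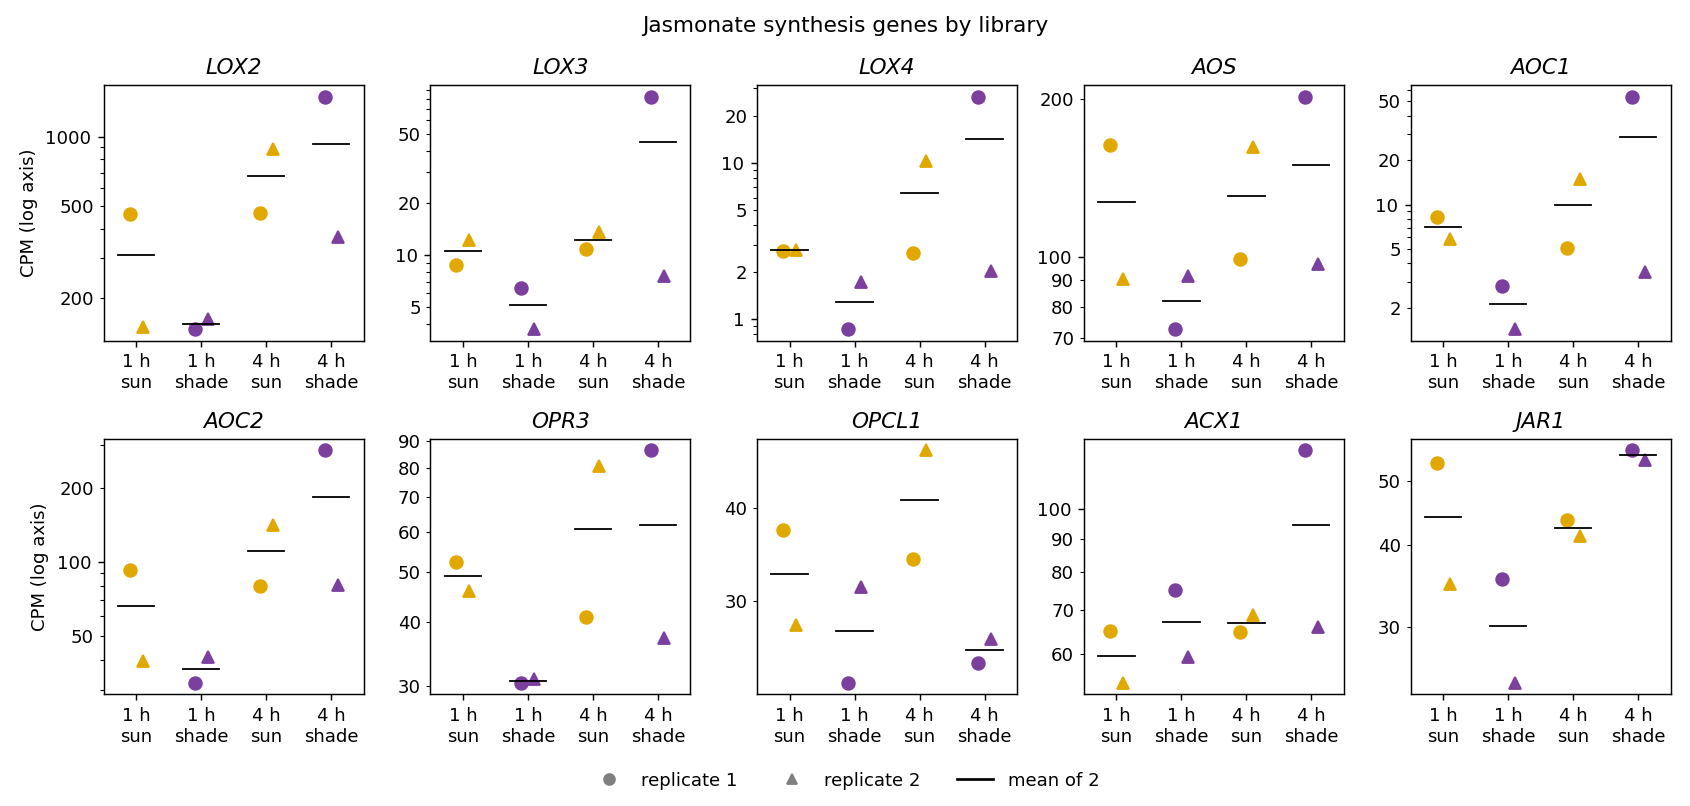
Values of the 10 jasmonate synthesis genes in each library, in CPM on a log axis that differs between panels. Circles are replicate 1, triangles are replicate 2 and lines are the mean of both, and in 9 panels the highest point is 4 hour shade replicate 1, with *LOX2* at 1494 CPM and *AOC1* at 54 CPM there.

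After 1 hour of shade, 9 of the 10 genes had lower mean log2 levels than in sun and *ACX1* had a higher one, but no gene passed the test. Among the lipoxygenases, *LOX2* was at 464 and 151 CPM in sun against 147 and 163 in shade. Only 1 hour sun replicate 1 was high, and sun replicate 2 fell between the shade libraries. *LOX3*, whose product acts with that of *LOX4* in fertility and in responses away from a wound, was at 8.72 and 12.3 CPM in sun against 6.49 and 3.74 in shade. *LOX4* was at 2.74 and 2.79 CPM in sun against 0.865 and 1.72 in shade, the latter from 4 and 6 reads. For both genes the shade libraries lay below the sun libraries.

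For the enzymes that form OPDA, *AOS* had 163 and 90.7 CPM in sun against 72.7 and 92 in shade at 1 hour. The groups overlapped, again because sun replicate 2 was near the shade values. *AOC1* was at 8.22 and 5.86 CPM in sun against 2.81 and 1.44 in shade, with no overlap, although the shade values rest on 13 and 5 reads. Its neighbour *AOC2*, at 93.2 and 39.4 CPM in sun against 32.2 and 41.1 in shade, overlapped.

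In the peroxisomal steps, *OPR3* was at 52.3 and 46.1 CPM in sun against 30.5 and 31 in shade at 1 hour. The groups did not overlap, and the replicates were close together in both. *OPCL1*, at 37.4 and 27.9 CPM in sun against 23.4 and 31.3 in shade, overlapped. *ACX1*, at 65 and 54.2 CPM in sun against 75.1 and 59.2 in shade, also overlapped. *JAR1*, the final conjugating enzyme, was at 53.3 and 34.9 CPM in sun against 35.5 and 24.7 in shade. Replicate 1 of shade was just above replicate 2 of sun.

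The test of these differences used limma on log2(CPM + 1), with Benjamini-Hochberg adjustment over the 19280 genes. The largest fold change was that of *AOC1* (log2 fold change -1.38, standard error 0.82, adjusted p = 0.824), followed by *LOX3* (-0.93, standard error 0.703, adjusted p = 0.866), *LOX2* (-0.77, standard error 0.546, adjusted p = 0.859) and *LOX4* (-0.74, standard error 0.78, adjusted p = 0.913). *AOC2* (-0.72), *OPR3* (-0.66), *AOS* (-0.57), *JAR1* (-0.53) and *OPCL1* (-0.25) were below 0 on the same scale, and *ACX1* was at 0.17. With limma 0 of the 10 genes passed an adjusted p of 0.05, which 0.472% of all genes did. An unadjusted p below 0.05 was found for 1 of the 10, *JAR1* (adjusted p = 0.674), and for 1297 of the 19280 genes tested. The quasi-likelihood test of edgeR and DESeq2, both run on reads recovered from the CPM values, also called 0 of the 10. Shade lay wholly below sun for 4 genes (*LOX3*, *LOX4*, *AOC1* and *OPR3*), as it did for 18.5% of all genes, and wholly above it for 0 genes, against 19.5% of all genes. With 2 libraries against 2, an exact permutation test of a single gene cannot give a p below 0.33.

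The median log2 fold change of the 10 genes at 1 hour was -0.69, beside -0.000192 for all tested genes. Leaving out 1 library moved it: without 1 hour sun replicate 1 the median was -0.19 and *LOX2* stood at 0.04. *AOC1* (-1.17), *LOX3* (-1.16), *LOX4* (-0.75) and *OPR3* (-0.57) were less affected by leaving it out. Jasmonate-induced genes were also high in that library: 5 of the 6 tested were highest there among the libraries at 1 hour. *TAT3* was higher in the other sun library (1.95 against 0.498 CPM, from 7 and 2 reads). The sum over 7 of them, with the vegetative storage proteins *VSP1* and *VSP2*, the cystine lyase *CORI3* and the tyrosine aminotransferase *TAT3* among them, was 741 CPM in it, 177 CPM in the other sun library and 154 and 172 CPM in shade, with *VSP2* giving 350 of the 741 CPM. The part of these genes in the result was not tested.

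At 4 hours the shade replicates were far apart for most of the 10 genes. *LOX2* was at 467 and 884 CPM in sun against 1494 and 369 in shade. *LOX3* was at 10.8 and 13.5 CPM in sun against 82.2 and 7.56 in shade, and *LOX4* was at 2.65 and 10.2 CPM in sun against 26.5 and 2.03 in shade. In all 3 lipoxygenases shade replicate 1 was the highest of the 4 libraries and shade replicate 2 the lowest, so that the sun values fell between them.

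The same order held in the next steps. *AOS* was at 99 and 162 CPM in sun against 202 and 96.8 in shade, *AOC1* at 5.07 and 15 CPM in sun against 54 and 3.49 in shade, and *OPR3* at 41 and 80.7 CPM in sun against 86.5 and 37.2 in shade. *AOC2* differed slightly, at 79.6 and 142 CPM in sun against 286 and 80.8 in shade, since its lower shade library was just above its lower sun library. *ACX1* was at 64.8 and 68.9 CPM in sun against 123 and 66 in shade, so that only shade replicate 1 stood apart.

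*OPCL1* and *JAR1* behaved differently at 4 hours, with shade replicates that were close together. *OPCL1* was at 34.2 and 47.7 CPM in sun against 24.8 and 26.7 in shade, wholly below sun. *JAR1* was at 43.7 and 41.3 CPM in sun against 55.7 and 53.8 in shade, wholly above sun. For all genes, 20.9% lay wholly lower in shade and 16.9% wholly higher. Neither gene passed the test with limma: the log2 fold change of *OPCL1* was -0.63 (standard error 0.226, adjusted p = 0.449) and that of *JAR1* was 0.36 (standard error 0.22, adjusted p = 0.71).

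Of the other genes at 4 hours, *LOX3* had the largest log2 fold change in limma, 1.03 with a standard error of 0.703 (adjusted p = 0.743), followed by *AOC1* with 0.67 and a standard error of 0.82 (adjusted p = 0.872). *LOX4* (0.52), *AOC2* (0.51), *ACX1* (0.43), *LOX2* (0.21), *AOS* (0.14) and *OPR3* (-0.02) had smaller ones. In total 8 of the 10 genes were above 0, with a median of 0.39 beside -0.025 for all tested genes. Limma, edgeR and DESeq2 each called 0 of the 10, while limma called 0.119% of all genes. In limma 1 of the 10 (*OPCL1*) had an unadjusted p below 0.05, as did 1661 of the 19280 genes tested.

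The outcome at 4 hours turned on which shade library was kept. Without shade replicate 1, 9 of the 10 genes were below 0, with *JAR1* the exception at 0.33, the median was -0.60, and limma called 0. Without shade replicate 2, 9 of the 10 were above 0, with *OPCL1* the exception, the median was 1.05, and limma called 5: *LOX3* (log2 fold change 2.67, adjusted p = 0.00102), *LOX4* (2.11, adjusted p = 0.0447), *AOC1* (2.48, adjusted p = 0.0121), *AOC2* (1.42, adjusted p = 0.0472) and *ACX1* (0.87, adjusted p = 0.0166). In all the other settings tried, the adjusted p of these 5 genes stayed above 0.05, up to 1. A fit with a lone shade library assumes that it varies like the other groups. The lone library in that fit was the one with the fewest reads, and leaving out shade replicate 2 also raised the number of all genes called from 23 to 921.

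**Figure D2:**
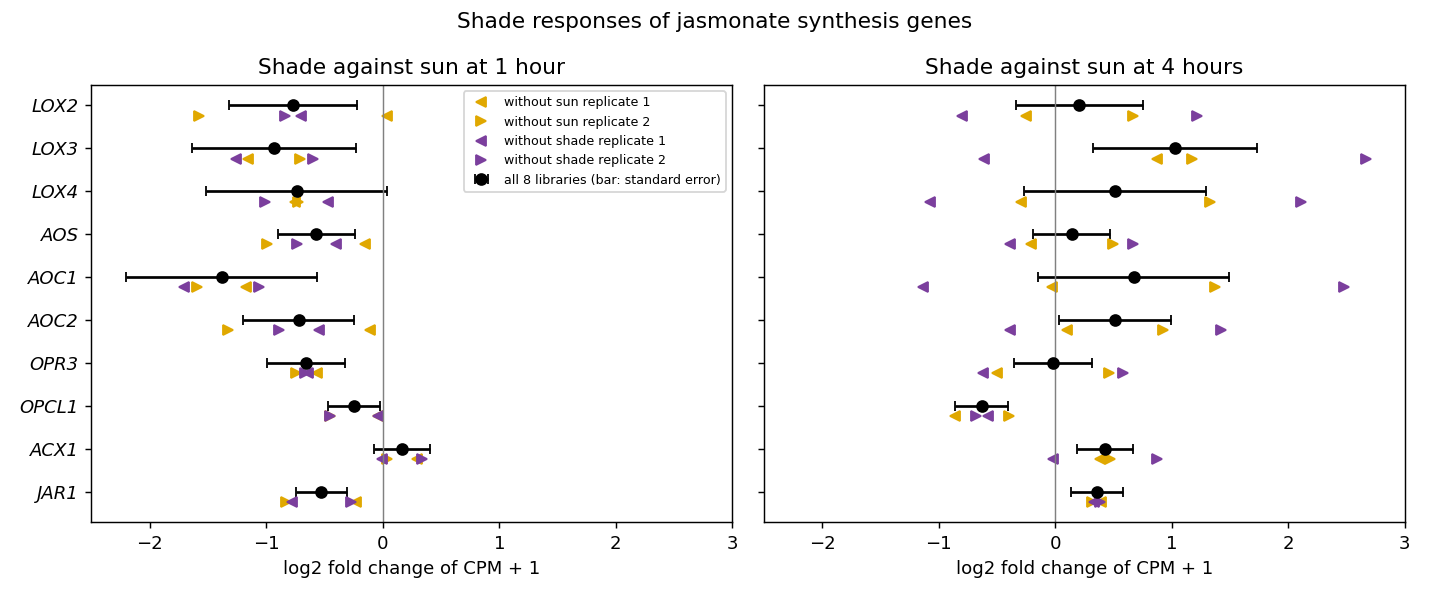
Log2 fold change of CPM + 1, shade against sun, for the 10 genes at 1 hour and at 4 hours. Black points with bars are the fit to all 8 libraries with its standard error and triangles are fits without 1 library of that time, and at 4 hours the triangles of *LOX3* run from -0.61 to 2.67 while those of *JAR1* run from 0.32 to 0.40.

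The gap between the shade replicates at 4 hours was not shared by most genes. Replicate 1 was higher by more than 1 on the log2(CPM + 1) scale for 7 of the 10 genes, as it was for 5.33% of all tested genes, and over the 10 the ratio of replicate 1 to replicate 2 in CPM had a median of 2.93 (0.929 to 15.5). In the 4 hour sun samples the ratio was lower in replicate 1, with a median of 0.587, and in the 1 hour sun samples its median was 1.37, with *LOX2* highest at 3.07. The shade samples at 1 hour had a median nearest to 1, at 0.944 (0.502 to 1.96). The sum of the jasmonate-induced genes followed the same order, and 5 of the 6 tested were highest in shade replicate 1 among the libraries at 4 hours: it was 1315 and 212 CPM in shade at 4 hours and 262 and 794 CPM in sun. Touch and wound genes, 7 of which were listed, summed to 180 and 88.4 CPM in shade and 169 and 121 CPM in sun at 4 hours, so the sum was highest in shade replicate 1 as well, by a smaller margin. Of the 7 genes, 4 were highest there among the libraries at 4 hours, while *TCH2* (53.2 against 47.1 CPM) and *TCH3* (38.4 against 30.8 CPM) were higher in 4 hour sun replicate 1 and *WRKY53* had its lowest value of all libraries in shade replicate 1 (26.6 CPM). Among the 4, *WRKY40*, a gene induced soon after wounding, was at 11.1 and 1.16 CPM in shade and 2.21 and 1.9 CPM in sun, and *ZAT10* was at 12.9 and 1.45 CPM in shade and 7.5 and 2.85 CPM in sun. The part of touch, wounding or the lower depth of this library in the values of the synthesis genes was not tested.

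The response at 4 hours minus that at 1 hour, which rests on the same libraries as both, was above 0 for 9 of the 10 genes, with a median difference of 0.93 on the log2 scale beside -0.04 for all tested genes. *AOC1* (2.06, standard error 1.16) and *LOX3* (1.96, standard error 0.994) had the largest differences and *OPCL1* alone was below 0 (-0.38). Limma, edgeR and DESeq2 each called 0 of the 10, against 0.0104% of all genes with limma. An unadjusted p below 0.05 in limma was found for 1062 of the 19280 genes tested. Of the 10 only *JAR1* had one, with a difference of 0.89, a standard error of 0.311 and an adjusted p = 0.81 in limma. Its response was -0.53 at 1 hour and 0.36 at 4 hours. Without 1 hour sun replicate 1 its response at 1 hour was -0.23 and the difference 0.59, and without 1 hour shade replicate 2 they were -0.28 and 0.63. Without sun replicate 2 or shade replicate 1 at 1 hour the response was larger, at -0.83 and -0.78. Without 4 hour shade replicate 1 the median difference was 0.11 and that of *JAR1* was 0.86, and without shade replicate 2 limma called *LOX3* (3.60, adjusted p = 0.00342) and *AOC1* (3.87, adjusted p = 0.0139), in a fit that called 200 of all genes instead of 2. In all the other settings tried, the adjusted p of these 2 genes stayed above 0.05, up to 1.

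Between the sun controls, *LOX2* was wholly higher at 4 hours (467 and 884 CPM) than at 1 hour (464 and 151 CPM), by a narrow margin between the replicates numbered 1. It was the only one of the 10 whose sun groups did not overlap, against 33% of all genes wholly higher and 22.5% wholly lower. Its log2 fold change was 1.28 (standard error 0.546) and it did not pass adjustment with limma (adjusted p = 0.242, and 0.0405 to 0.831 over the alternatives). It passed only when either 4 hour shade library was left out of the shared fit, which does not touch its own 4 values and which raised the count of all genes called from 691 to 1723 without shade replicate 1 and 1717 without shade replicate 2. Leaving out a sun library moved its log2 fold change to 2.08 (without 1 hour replicate 1), 0.47 (1 hour replicate 2), 1.74 (4 hour replicate 1) or 0.82 (4 hour replicate 2). The sun groups of the other 9 genes overlapped, their log2 fold changes ran from -0.02 for *JAR1* to 0.80 for *AOC2*, and the median of the 10 was 0.27 beside 0.07 for all tested genes. Without each sun library in the same order this median was 0.50, 0.12, 0.63 and 0.04. Limma called 0 of the 10 and 3.58% of all genes between the sun samples, with 414 higher and 277 lower at 4 hours, a split that became 302 higher and 349 lower after median ratio rescaling. With edgeR and DESeq2, 0 of the 10 were called. In limma *LOX2* alone of the 10 had an unadjusted p below 0.05, which 3388 of the 19280 genes tested had.

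As a description of the 8 libraries, with no cut-off set for likeness, most of the 10 genes followed a common pattern. The Pearson correlation of each gene with the mean centred log2 profile of the other 9 was 0.964 for *AOC1*, 0.958 for *AOC2*, 0.946 for *LOX4*, 0.936 for *OPR3*, 0.932 for *LOX2*, 0.903 for *AOS*, 0.872 for *LOX3* and 0.745 for *ACX1*. It was 0.64 for *JAR1* and 0.16 for *OPCL1*. Without 4 hour shade replicate 1, over 7 libraries, it was 0.147 for *ACX1*, 0.545 for *JAR1*, 0.697 for *LOX3* and 0.84 for *OPCL1*, and it stayed between 0.857 and 0.933 for the other 6. *OPCL1* thus followed the pathway in 7 libraries and not in the library where most of the others were highest. The likeness of *ACX1* rested on that library. All genes of a library share its depth and its scaling.

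Of 12589 other genes with a mean of at least 10 CPM, the 5 most like the mean profile of the 10 were AT1G52000 (r = 0.993 over 8 libraries and 0.984 without 4 hour shade replicate 1), annotated as a mannose-binding lectin superfamily protein, AT2G34810 (0.984 and 0.957), of the FAD-binding berberine family, *CPL1* (AT4G21670, a phosphatase, 0.980 and 0.952), the glyoxalase gene *GLX1* (AT1G11840, 0.977 and 0.951) and AT1G79570 (0.973 and 0.928), a protein kinase. AT1G52000 was at 26.9 and 22.9 CPM in sun against 16 and 16.4 in shade at 1 hour, and at 24.7 and 42 CPM in sun against 76.2 and 21.5 in shade at 4 hours. *GLX1* covered a much narrower range, from 214 CPM in 1 hour sun replicate 2 to 301 CPM in 4 hour shade replicate 1.

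**Figure D3:**
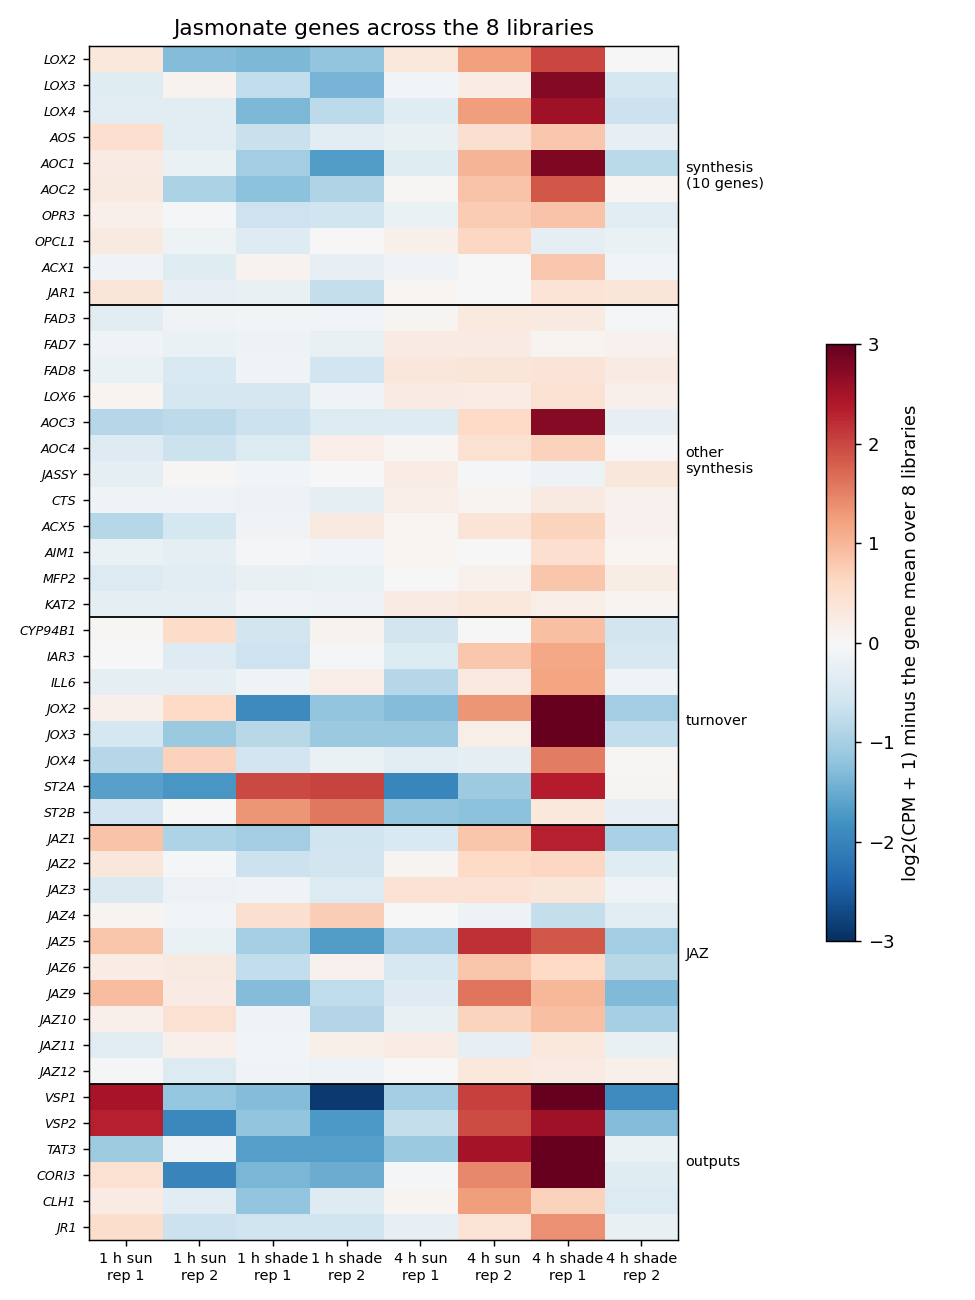
Log2(CPM + 1) minus the mean of each gene over the 8 libraries, for the 10 synthesis genes and for tested genes of 4 related lists, with libraries in columns and colours that end at -3 and 3. The column of 4 hour shade replicate 1 is red for 9 of the 10 synthesis genes and for most induced genes, and *ST2A* and *ST2B* are red in both shade libraries at 1 hour.

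Other genes of the pathway mostly did not pass the test either. They are in lists drawn up from their known roles, with earlier results of these data known. Of 14 further synthesis genes, which provide linolenic acid, OPDA transport and the remaining steps of β-oxidation, 12 were tested and none passed limma in either shade comparison. At 1 hour 8 of the 12 were above 0, with a median log2 fold change of 0.15. Shade lay wholly above sun for 6 of the 12 and wholly below it for 1, against 19.5% and 18.5% of all genes. This list holds relatives of the 10 genes. *AOC4*, another cyclase, was at 38.6 and 32.4 CPM in sun against 38.1 and 58.3 in shade at 1 hour, and *AOC3*, which lies in the same gene family, was at 0.996 and 1.12 CPM in sun against 1.3 and 1.72 in shade. *AOC3* reached 23.1 CPM in 4 hour shade replicate 1 against 2.03 CPM in replicate 2. *LOX6*, a lipoxygenase of the fast wound response, was at 28.2 to 56.5 CPM over all libraries, and *ACX5*, another oxidase, at 7.47 to 23.1 CPM. At 1 hour *ACX5* was at 7.47 and 9.49 CPM in sun against 13.2 and 17.2 in shade (limma, log2 fold change 0.77, adjusted p = 0.53). *KAT2*, the thiolase of the last β-oxidation step, rose between the sun samples, from 156 and 158 CPM at 1 hour to 227 and 241 CPM at 4 hours (limma, log2 fold change 0.57, adjusted p = 0.0284), and did not pass without any 1 of these 4 libraries (adjusted p of 0.164 to 0.342) after median ratio rescaling (0.0533) or with edgeR (0.0508).

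Among 6 genes of side branches, all tested, limma called none in shade. *HPL1*, a hydroperoxide lyase that competes with *AOS* for the lipoxygenase product, rose between the sun samples from 8.72 and 1.68 CPM to 16.3 and 30.9 CPM (limma, log2 fold change 2.20, adjusted p = 0.0298). It kept its call without 1 hour sun replicate 1 (adjusted p = 0.00932) and lost it without 1 hour sun replicate 2 (log2 fold change 1.27, adjusted p = 0.279), without either 4 hour sun library (0.121 and 0.38) without either 1 hour shade library (0.065 and 0.0657) or with no filter on low values (0.107). *OPR1* and *OPR2*, relatives of *OPR3* that act little on OPDA of the jasmonate pathway, were at 18.1 to 36 CPM and 2.33 to 5.73 CPM over the 8 libraries. The 9-lipoxygenase genes *LOX1* and *LOX5* were at 22.1 to 40.8 CPM and 2.79 to 11.9 CPM, and *JMT*, which methylates jasmonic acid, had at most 4.28 CPM.

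The genes of these lists that passed the shade test at 1 hour were both in the list of jasmonate turnover. Of 11 genes of jasmonate turnover, 8 were tested and 2 were called higher, where limma called 0.472% of all genes in either direction. This list was chosen with earlier results of these data known, so its count is not an independent comparison with all genes. *ST2A*, which encodes a sulfotransferase that modifies 12-hydroxyjasmonate, was at 2.49 and 2.23 CPM in sun against 41.3 and 42.8 in shade (limma, log2 fold change 3.68, standard error 0.539, adjusted p = 0.00701). Its neighbouring relative *ST2B* was at 6.97 and 10.9 CPM in sun against 28.6 and 34.2 in shade (1.73, standard error 0.302, adjusted p = 0.02). Without any 1 of the 4 libraries at 1 hour neither gene passed, with log2 fold changes of 3.62 to 3.74 and adjusted p of 0.116 to 0.184 for *ST2A* and log2 fold changes of 1.44 to 2.02 and adjusted p of 0.105 to 0.37 for *ST2B*, which also missed the threshold without either 4 hour sun library (0.0526 and 0.0529). With no filter on low values both also missed it (adjusted p = 0.079 for *ST2A* and 0.102 for *ST2B*). At 4 hours both were wholly higher in shade, *ST2A* at 1.76 and 4.04 CPM in sun against 54 and 10.5 CPM in shade, without passing limma (adjusted p = 0.0856 for *ST2A* and 0.177 for *ST2B*). *JOX2* and *JOX3*, which encode oxidases that inactivate jasmonic acid, were highest in 4 hour shade replicate 1, *JOX3* with 82.2 CPM against at most 1.43 CPM in every other library.

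Of 12 *JAZ* genes, the repressors that jasmonate removes and whose transcripts it induces, 10 were tested and none passed at 1 hour, with a median log2 fold change of -0.65 (-0.33 without 1 hour sun replicate 1) and 6 of 10 below 0. *JAZ9* was at 78 and 48.8 CPM in sun against 16 and 23.6 in shade (limma, log2 fold change -1.62, adjusted p = 0.628), and its adjusted p ran from 0.0138, when only the 4 libraries at 1 hour were fitted, to 1 over the alternatives. At 4 hours it was at 30.9 and 126 CPM in sun against 83.1 and 15.7 in shade, again with shade replicate 2 lowest, but with sun replicate 2 highest. Among the 6 tested genes induced by jasmonate all were below 0 at 1 hour, with a median of -0.91 that became -0.22 without 1 hour sun replicate 1, and none passed. *VSP2* was at 350 and 17.3 CPM in sun against 29.6 and 20.1 in shade at 1 hour, so its sun replicates lay on either side of both shade libraries. Of 6 genes of perception, including *COI1*, *MYC2* and *MYC3*, limma called none in either shade comparison.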

How the data were processed

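The authors mapped 40-base reads to TAIR10 with TopHat, as their methods and processing notes state, and deposited 1 CPM value per gene and library. Each column was scaled to an effective library size, which by the column sums was 0.985 to 1.01 times the reads in the library. The program that counted reads, the handling of reads with several matches, strand and the software versions are not given in the sources used here. All 8 columns were used and 0 columns of values were left unused. In every library 100% of values were whole multiples of the value of 1 read (within 0.01 read), and dividing by it gave the reads. Counting error falls with depth, so the smallest library (1154019 reads) is the least precise, and values resting on 3 reads or fewer are treated as at the floor. No molecular identifiers are described, so counting error is only a lower limit on the technical error.

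Genes that reached 1 CPM in 2 or more libraries were tested as log2(CPM + 1), which understates changes of low genes, with limma 3.58.1 in R 4.3.3: 1 model of 4 conditions over 8 libraries, 4 residual degrees of freedom, a mean-variance trend, and Benjamini-Hochberg adjustment within each comparison at 0.05. The authors used edgeR on counts with a threshold of 0.001, so the edgeR calls given here, at 0.05, are not comparable with theirs. Because the deposited unit is CPM, limma was the main test, and edgeR 4.0.16 (138 genes called at 1 hour, 28 at 4 hours, 3 for the difference and 983 between sun samples) and DESeq2 1.42.0 were run on the recovered reads. The limma procedure was tested on simulated data. Other alternatives were pseudocounts of 0.25 and 5, no filter, a minimum of 5 CPM, a fit to just the 4 libraries compared, median ratio rescaling, a replicate block, each library left out, and a threshold of 0.001. The labels do not say whether the 2 pools of a condition were grown separately, so p-values measure the spread between these pools. The members and all gene lists were chosen with earlier results of these data known. Genes named outside the 10 are mostly list members past the threshold, those with the 2 largest absolute changes of a list at 1 or 4 hours, and relatives of the 10. Not all genes that meet these rules are described. *TCH3* and *WRKY53* are named as exceptions to a count and *JAZ4* as a flagged result. *CLV3*, *WUS* and other tissue markers served as checks. The 5 most similar genes were ranked by Pearson correlation. Positions, exons and sequences are from RefSeq's TAIR10.1 annotation, the deposited table has no coordinates, and the T/G-box was added to the motif search after the data were seen. Words of 40 bases were counted in place of protein identity, which was not analysed here. Tables and figures were made with Python 3.11.15, pandas 2.3.3, numpy 2.4.6, scipy 1.17.1 and matplotlib 3.10.9.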

Additional observations from a re-analysis of the deposited data

Results flagged for a closer look

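For 3 of 65 tested genes of the lists, the 10 synthesis genes included, both shade libraries lay on one side of both sun libraries at 1 hour and on the other side at 4 hours, as they did for 5.33% of all tested genes, and for none of them did the difference between the responses pass limma's test. *COI1*, the jasmonate receptor, was lower in shade at 1 hour (log2 fold change -0.25) and higher at 4 hours (0.42), a difference of 0.67 (limma, adjusted p = 0.901). *JAZ4* was read 6 times in each shade library against 3 and 2 times in sun at 1 hour, and 0 and 1 times in shade against 3 and 2 times in sun at 4 hours, so both groups at 4 hours were at or under the floor of 3 reads and the fitted difference of -1.06 (limma, adjusted p = 0.91) rests on very few reads. *KAT2* was higher at 1 hour (0.16) and lower at 4 hours (-0.14), a difference of -0.30 (limma, adjusted p = 0.91). They were singled out after their values were seen.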

How the results depend on the processing

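Of 670 values of the 10 genes under alternatives, 631 kept their direction and their side of the threshold, 30 changed sign (26 of them with a library left out) and 9 passed the threshold that had not done so, all with a library left out. For counts over all genes, the 1 hour shade comparison (91) gave 35 without a filter, 138 with edgeR, 13 at a threshold of 0.001 and 14 to 186 with 1 library left out. The 4 hour comparison (23) gave 10 with a pseudocount of 5, 1 without a filter, 1 with only its 4 libraries, 49 with DESeq2, 1 at 0.001 and 0 to 921 with 1 library left out. The difference between responses (2) gave 15 with DESeq2, 0 at 0.001 and 0 to 200 with 1 library left out. Sun at 4 hours against 1 hour (691) gave 312 without a filter, 2180 with only its 4 libraries, 45 at 0.001 and 67 to 1723 with 1 library left out. Same-numbered libraries did not deviate together (correlations of deviations -0.0632 to 0.103), and with a replicate block the counts were 101, 30, 1 and 770, with 0 of the 10 genes called. The cause of these changes was not tested.

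With 1 library left out, log2 fold changes of genes that changed sign ran, at 1 hour, from -1.58 to 0.0369 for *LOX2* and from -0.003031 to 0.33 for *ACX1*. At 4 hours they ran from -0.80 to 1.22 for *LOX2*, -0.61 to 2.67 for *LOX3*, -1.07 to 2.11 for *LOX4*, -0.39 to 0.67 for *AOS*, -1.13 to 2.48 for *AOC1*, -0.39 to 1.42 for *AOC2*, -0.62 to 0.58 for *OPR3* and -0.0180 to 0.87 for *ACX1*. For the difference they ran from -0.0289 to 1.99 for *LOX2*, -0.34 to 2.85 for *LOX4* and -0.18 to 0.71 for *ACX1*. Between sun samples they ran from -0.0199 to 0.43 for *LOX3*, -0.0463 to 1.57 for *LOX4*, -0.36 to 0.48 for *AOS*, -0.39 to 1.00 for *AOC1*, -0.25 to 0.71 for *OPR3* and -0.32 to 0.28 for *JAR1*. *OPR3* at 4 hours was 0.0272 with DESeq2, and *AOS* between sun samples was -0.0146 after median ratio rescaling, -0.0409 with edgeR and -0.0342 with DESeq2. At 1 hour 8 of the 10 genes and at 4 hours *OPCL1* and *JAR1* kept their sign in all fits run.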
